A study of Mus musculus with 16 samples.

Results

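The receptors examined here are those that let blood neutrophils sense GM-CSF, G-CSF, IL-6 and a few related cytokines. They are the products of 10 genes, chosen by symbol from the 23337 gene symbols of the count table: Csf2ra, Csf2rb, Csf2rb2, Csf3r, Il6ra, Il6st, Ifngr1, Ifngr2, Il4ra and Il10ra. The rule that picks them uses symbols and no measured value, although results of these data were known when the genes were proposed. Counts above a low-count filter were found for 9 of the 10 genes, among 9213 such genes in all, and Il6st was listed at 0 throughout.

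Neutrophils were taken by negative magnetic selection from the blood of C57/Bl6 mice that were 8 weeks old. All mice carried floxed Ltbr alleles, Ltbr encoding the lymphotoxin β receptor (LTβR), a receptor for the TNF-family cytokine LIGHT. LTβRΔN mice (Ltbrfl/fl x Mrp8-Cre) also carried a Cre driven by the Mrp8 promoter, which is active in the neutrophil lineage, and their littermates without Cre (Ltbrfl/fl Cre-) were the controls. Each library was labelled unstimulated or stimulated, which gave 3 control libraries without and 4 with stimulation, and for LTβRΔN 4 without and 5 with. The culture protocol lasted 2 hours and names 100 ng/ml TNF, 50 ng/ml IL-6, 100 ng/ml GM-CSF and 500 ng/ml LIGHT. The sources differ on whether the cytokines or LIGHT set the stimulated groups apart, so the groups are named by their labels only. The labels do not say whether libraries came from separate mice or were pooled, so p-values measure the spread between libraries, which may be partly technical.

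Receptors of this kind have no enzyme of their own. They work in pairs or larger complexes whose chains together recognise the cytokine and bind Janus kinases (JAKs). The JAKs phosphorylate STAT transcription factors and so switch on genes such as Cish and Socs3, whose products then damp the receptor. The GM-CSF receptor joins a private α chain (Csf2ra) to the common β chain (Csf2rb), which IL-3 and IL-5 receptors share, and mice have an additional β chain for IL-3 alone, Csf2rb2. The G-CSF receptor (Csf3r) pairs with itself and drives neutrophil production, whereas IL-6 first binds Il6ra and then recruits the signalling chain gp130, encoded by Il6st.

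Total counts lay between 1094335 and 11932653 per library, and stimulated LTβRΔN neutrophils had the lowest median total, 2408608. Ltbr, the deleted gene, lay between 84.6 and 154 CPM in the control libraries and between 0.705 and 18.1 CPM in the LTβRΔN libraries (CPM, counts scaled to one common library total after TMM correction of the library sizes). Cish lay between 0.426 and 5.60 CPM in unstimulated and between 239.8 and 589 CPM in stimulated libraries, so no library stood against its labels in either gene. Of 12 neutrophil markers 11 were in the table, and together they made up 49686 to 80098 CPM per library. Of the markers of other cell types, those of monocytes summed to between 341 and 561 CPM per library. Summed T cell markers lay between 4.75 and 16.4 CPM, those of eosinophils between 0.775 and 11.3 CPM, those of B cells between 0 and 4.16 CPM, those of erythroid cells between 0 and 6.49 CPM and those of NK cells between 0 and 0.140 CPM. Ms4a1 (B cell), Cd3e (T cell), Ncr1 (NK cell) and Epx (eosinophil) were at 0 in every library, while other genes of these lists were not. Summed platelet markers lay between 8.98 and 245 CPM, and those of immature neutrophils between 40.8 and 770.1 CPM. Both sums were highest in the stimulated control group. The platelet marker Gp1bb (24.2 CPM) and the immature neutrophil marker Camp (196 CPM) peaked in stimulated control replicate 3. That library also had the highest Csf2rb2 level, 56.2 CPM. None of the tested markers of other cell types or of immature neutrophils passed the test in any comparison. The part of these cells in the receptor levels was not tested. In bulk samples, fewer cells of a type and less RNA per cell cannot be told apart.

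Csf2rb and Csf2rb2 lie side by side on chromosome 15 and are close copies, so their sequences are shown here because they bear on how far reads can be assigned to one or the other. In the GENCODE M21 annotation of GRCm38, Csf2rb is on the plus strand at chr15:78325752-78353847 and Csf2rb2 on the minus strand at chr15:78282507-78305721. Csf2rb had 11 wholly coding exons, and exons were paired with those of Csf2rb2 if their lengths were equal and the share of differing bases was low. This gave 8 pairs with 1064 bases, of which 67 differed, so that 93.7% were identical (87.9% to 99% by exon). The identity is thus that of exons picked for likeness and not that of the whole transcripts. Of all 50-base stretches of the Csf2rb transcript, 18.9% also occurred unchanged in that of Csf2rb2. The most alike pair was exon 13 with 104 bases, in which capitals mark the single base that differs (plus strand chr15:78347374-78347477 and minus strand chr15:78285980-78286083).
Csf2rb exon 13: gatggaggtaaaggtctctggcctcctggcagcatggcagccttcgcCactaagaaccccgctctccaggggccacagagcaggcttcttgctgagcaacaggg
Csf2rb2 exon 13: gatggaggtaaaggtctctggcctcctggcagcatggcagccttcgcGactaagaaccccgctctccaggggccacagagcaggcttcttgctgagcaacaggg
The least alike pair was exon 11 with 91 bases, in which 11 bases differed, again in capitals (plus strand chr15:78346383-78346473 and minus strand chr15:78286973-78287063).
Csf2rb exon 11: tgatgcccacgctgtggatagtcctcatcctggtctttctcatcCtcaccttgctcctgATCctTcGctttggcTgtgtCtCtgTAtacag
Csf2rb2 exon 11: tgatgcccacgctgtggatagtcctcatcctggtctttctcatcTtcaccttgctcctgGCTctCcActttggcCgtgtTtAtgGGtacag
A read that falls wholly in shared bases cannot be assigned to 1 of these genes, so their separate counts are uncertain in part.

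To compare genes with each other, CPM was divided by the length of each gene's exons, merged over all its annotated transcripts. This can exceed the length of a single transcript, as for Csf2rb with 7277 bases against 4764 in the transcript compared above. The order of genes with close values can therefore depend on the length taken. Csf3r stood far above all others, with a mean of 1540 CPM per kb over the 16 libraries. Csf2ra followed at 163, Il10ra at 129, Ifngr1 at 113, Il4ra at 77.7, Ifngr2 at 69.6, Csf2rb at 48.7, Il6ra at 25.9 and Csf2rb2 at 5.68 CPM per kb. Csf3r exceeded Csf2ra in 16 of 16 libraries, and Csf2rb exceeded Il6ra, and Il6ra exceeded Csf2rb2, in 16 of 16 as well. Neighbours in the middle of this order changed places: Csf2ra was above Il10ra in 8, Il10ra above Ifngr1 in 9, and Il4ra above Ifngr2 in 10 of 16 libraries. The place of Il10ra differed by condition, so its mean over all libraries describes neither. It was at 37.3 ± 3.40 (SD, n = 3) and 45.0 ± 3.72 (SD, n = 4) CPM per kb in unstimulated control and LTβRΔN neutrophils, near Csf2rb at 36.9 and 38.8, and below Csf2ra in all 7 of these libraries. In stimulated neutrophils it was at 209.6 ± 36.4 (SD, n = 4) and 187 ± 38.8 (SD, n = 5) CPM per kb, and below Csf2ra in 1 of 9 libraries. The ligand-binding α chain of the GM-CSF receptor thus had a higher level per kb than the common β chain, and the private IL-3 β chain a lower one.

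**Figure D1:**
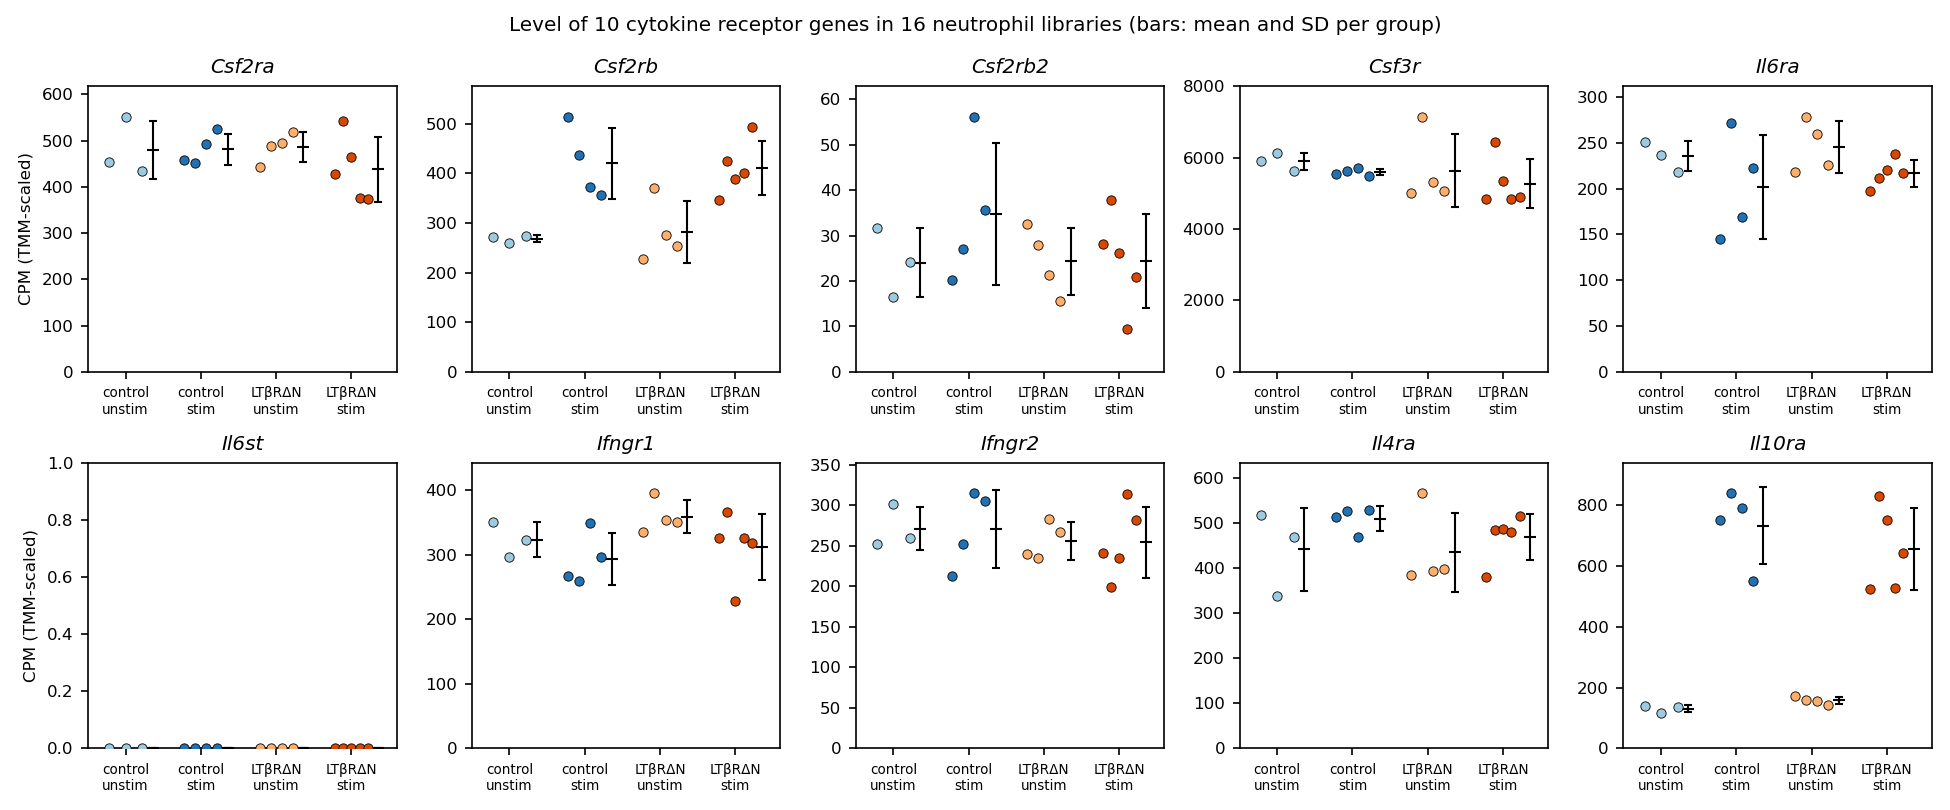
Level of each of the 10 receptor genes in CPM (y axis, from 0, with its own scale per gene) in the 16 libraries of 4 groups (x axis). Points are libraries and bars are the group mean and SD. Il10ra is the gene whose stimulated libraries all lie far above the unstimulated ones, Csf2rb is raised less, and Il6st is at 0 in all libraries.

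In stimulated neutrophils the transcript of the IL-10 receptor α chain, Il10ra, which binds the anti-inflammatory cytokine IL-10, rose several-fold in both genotypes, and Csf2rb rose more modestly. No other receptor gene passed the test. These were 2 of 9 members tested in control and 2 of 9 in LTβRΔN neutrophils, both higher, beside 3.48% and 3.73% of all 9213 genes (edgeR's quasi-likelihood test, Benjamini-Hochberg adjusted p under 0.05 over all genes tested). Higher genes made up 2.82% and lower genes 0.662% of all genes in control, and 2.98% and 0.749% in LTβRΔN neutrophils. The median log2 fold change of the 9 members was 0.0050 in control and -0.015 in LTβRΔN neutrophils, beside -0.024 and -0.028 for all genes, so most receptor genes stayed near the middle of the distribution.

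Il10ra lies on the minus strand at chr9:45253837-45269149. Its level was 138, 117 and 137 CPM in the unstimulated control libraries and 753, 840.1, 790.3 and 549.7 CPM in the stimulated ones. LTβRΔN libraries held 173, 160.1, 155 and 142 CPM without stimulation and 525, 831, 752, 528 and 643 CPM with it. The lowest stimulated library of either genotype thus lay above the highest unstimulated library by a wide margin. The log2 fold change was 2.49 (SE 0.179), 5.62-fold, in control neutrophils with an adjusted p of 7.99e-10 in edgeR. In LTβRΔN neutrophils it was 2.06 (SE 0.155), 4.17-fold, with an adjusted p of 1.52e-09 in edgeR. Genes whose groups did not overlap made up 12.7% of all genes in the control and 7.28% in the LTβRΔN comparison. Among members, Il10ra and Csf2rb were without overlap in control and Il10ra alone in LTβRΔN neutrophils. The log2 fold change of Il10ra stayed between 2.25 and 2.61 in control and between 1.88 and 2.13 in LTβRΔN neutrophils under every alternative processing and with any library left out, and passed the test in each. Among these alternatives, the fit with the library index as a covariate cannot separate index from treatment in LTβRΔN neutrophils, as set out below.

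Treatment and the second sequencing index of the libraries were largely the same split. All stimulated libraries and 1 unstimulated control library carried index S521, and the others carried S520. Within S521, Il10ra was at 137 CPM in the unstimulated control library and at 733 ± 127 CPM (SD, n = 4) in the stimulated ones, a log2 ratio of 2.42. In LTβRΔN neutrophils index and treatment cannot be told apart. Fits with the index as a covariate take the index effect from the unstimulated control libraries, of which 1 carried S521. The values from these fits given for either genotype, here and below, therefore rest on that library. For LTβRΔN neutrophils they do not separate index from treatment.

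The other chain of the IL-10 receptor, Il10rb, was looked at after its values had been seen. It lay between 242 and 296 CPM in all libraries, with log2 fold changes of 0.018 (control, adjusted p 0.989 in edgeR) and 0.054 (LTβRΔN, adjusted p 0.937), although with library totals as the only scaling both values turned negative. Il10, the gene of the ligand, was at 0 in every library but some stimulated LTβRΔN libraries, where it reached at most 4.94 CPM.

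Over the 16 libraries the genes with log2 CPM patterns most like that of Il10ra, among 5452 genes with a mean of at least 10 CPM, were Cd274 (Pearson r = 0.995), Sod2 (r = 0.988) and Marcksl1 (r = 0.987). Cd274 encodes the checkpoint ligand PD-L1 and Sod2 the mitochondrial superoxide dismutase. These correlations are descriptions, since all points share the split by treatment and index. Among the members themselves Csf2rb was the most like Il10ra (r = 0.852), and Il6ra the least (r = -0.46).

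The common β chain of the GM-CSF, IL-3 and IL-5 receptors, Csf2rb, was at 272, 260.1 and 274 CPM in unstimulated and at 515, 437, 373 and 356 CPM in stimulated control libraries. The LTβRΔN values were 228, 371, 276 and 255 CPM without stimulation and at 347, 425, 389, 400.1 and 493 CPM with it. The control groups did not overlap, whereas the unstimulated LTβRΔN library at 371 CPM lay within the stimulated range. The log2 fold change was 0.65 (SE 0.164), 1.56-fold, in control neutrophils (edgeR adjusted p 0.0237) and 0.55 (SE 0.145), 1.46-fold, in LTβRΔN neutrophils (edgeR adjusted p 0.0303). Within index S521 it was at 274 CPM in the unstimulated control library and at 420.4 ± 71.9 CPM (SD, n = 4) in the stimulated ones, a log2 ratio of 0.62.

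The call for Csf2rb rested on single libraries, unlike that for Il10ra. In control neutrophils the edgeR adjusted p was 0.0978 without stimulated replicate 1, 0.0602 without stimulated replicate 2, and 0.0892, 0.136 and 0.0780 without unstimulated replicates 1, 2 and 3, with log2 fold changes between 0.53 and 0.66. In LTβRΔN neutrophils it was 0.0566, 0.0508 and 0.0999 without stimulated replicates 2, 4 and 5, and 0.141, 0.0991 and 0.123 without unstimulated replicates 1, 3 and 4, with log2 fold changes between 0.46 and 0.56. With the index as a covariate the log2 fold changes were 0.62 and 0.51 and the edgeR adjusted p values 0.491 and 1, and with library totals as the only scaling they were 0.40 and 0.36 with adjusted p values of 0.226 and 0.222. Counted together, Csf2rb and Csf2rb2 had log2 fold changes of 0.64 (edgeR adjusted p 0.0156) and 0.51 (edgeR adjusted p 0.0312), so the call was the same with both copies summed.

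Csf2rb2, the IL-3 β chain, was at 31.6, 16.4 and 24.1 CPM in unstimulated and at 20.1, 27.0, 56.2 and 35.7 CPM in stimulated control libraries. LTβRΔN libraries had 32.5, 28.0, 21.3 and 15.7 CPM without and 28.0, 37.7, 26.1, 9.43 and 20.9 CPM with stimulation. The groups overlapped widely, and the log2 fold changes of 0.53 (95% CI -0.31 to 1.38) and 0.029 (95% CI -0.73 to 0.79) leave room for a change of either sign. With single libraries left out the former ranged from 0.20 to 0.78 and the latter from -0.21 to 0.24. It took between 2.30% and 13.1% of the summed counts of both β chains in single libraries.

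Csf2ra, which gives GM-CSF its specificity, lies on the minus strand at chr19:61223957-61228429. It was at 480 ± 62.9 CPM (SD, n = 3) in unstimulated and 482 ± 33.5 CPM (SD, n = 4) in stimulated control neutrophils, a log2 difference of 0.0050 (95% CI -0.28 to 0.29). In LTβRΔN neutrophils it was at 486 ± 31.7 CPM (SD, n = 4) and 438 ± 70.0 CPM (SD, n = 5), a difference of -0.15 (95% CI -0.40 to 0.099). It varied least of all members, with the highest of the 16 libraries at 1.47 times the lowest.

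Because a ratio of 2 genes within a library needs no scaling between libraries, the counts of Csf2ra were divided by the sum of Csf2rb and Csf2rb2. Csf2ra took 61.9% ± 4.06 (SD, n = 3) of the summed counts of these 3 genes, the IL-3 β chain included, in unstimulated and 51.5% ± 4.83 (SD, n = 4) in stimulated control libraries. The corresponding shares in LTβRΔN neutrophils were 61.5% ± 4.62 (SD, n = 4) and 50.0% ± 5.02 (SD, n = 5). The log2 ratio differed by -0.62 in control (exact two-sided permutation test, p = 0.0571, adjusted p = 0.343 over 12 tests) and by -0.68 in LTβRΔN neutrophils (exact permutation p = 0.0159, adjusted p = 0.190). In both genotypes the highest stimulated library lay below the lowest unstimulated one, so both p-values are the smallest that these numbers of libraries can give, and the control comparison could not go below 0.0571. Neither passed after adjustment. Neither the ratio of Csf2rb2 to Csf2rb nor that of Ifngr1 to Ifngr2 passed in any of 4 comparisons, with adjusted p-values of at least 0.707.

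**Figure D2:**
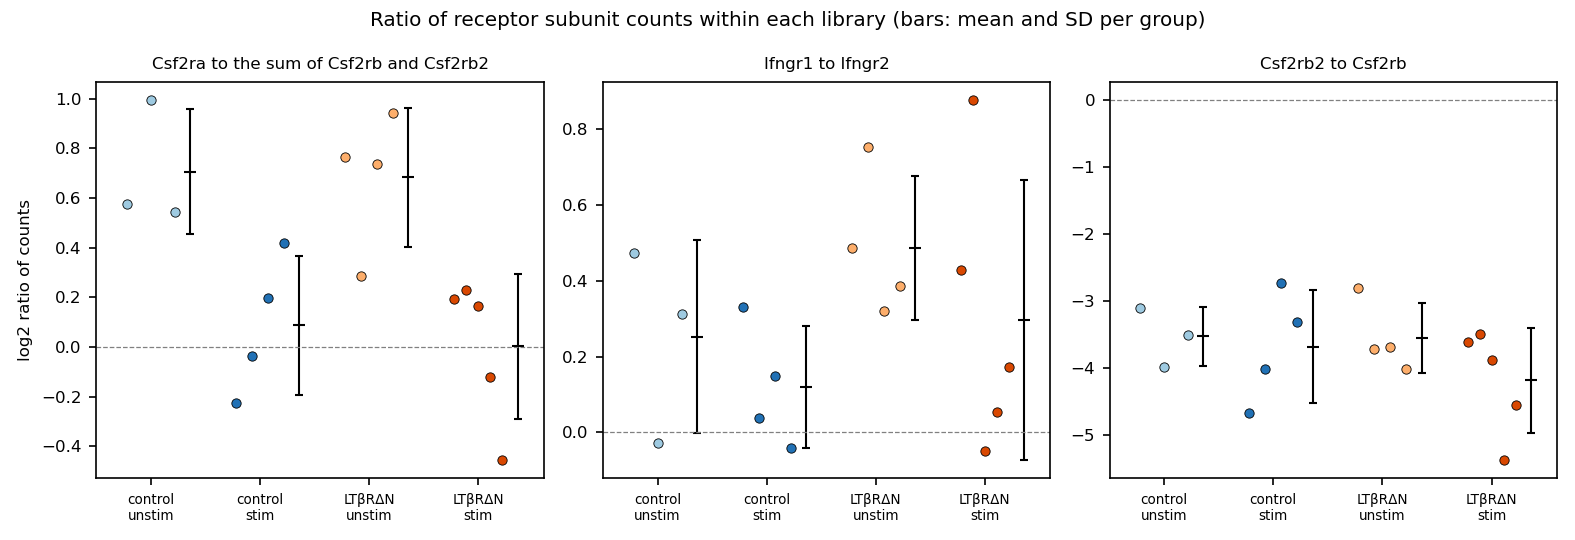
Log2 ratio of counts within each library (y axis, a separate scale per panel, dashed line at equal counts) for 3 pairs of receptor chains in the 4 groups (x axis). Points are libraries and bars are the group mean and SD. Csf2ra against the β chains centres near 0.7 in both unstimulated groups and near 0 to 0.1 in both stimulated groups, while the other ratios overlap between groups.

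Csf3r, the receptor for G-CSF and the most abundant member, lies on the plus strand at chr4:126024550-126044440. It was at 5916, 6127 and 5633 CPM in unstimulated and at 5551, 5626, 5698 and 5488 CPM in stimulated control libraries. LTβRΔN libraries had 5007, 7147, 5313 and 5071 CPM without and at 4849, 6434, 5352, 4835 and 4891 CPM with stimulation. The log2 differences of -0.076 (95% CI -0.33 to 0.18) and -0.095 (95% CI -0.32 to 0.13) did not pass the test. A change of the fold seen for Csf2rb lies outside both intervals.

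Il6ra, the chain that binds IL-6, was at 235 ± 16.7 CPM (SD, n = 3) in unstimulated and 202 ± 56.6 CPM (SD, n = 4) in stimulated control neutrophils, a log2 difference of -0.22 (95% CI -0.58 to 0.13). The LTβRΔN groups were at 246 ± 28.4 CPM (SD, n = 4) and 217 ± 14.7 CPM (SD, n = 5), a difference of -0.18 (95% CI -0.49 to 0.14). Il6st, whose product gp130 carries the signal of IL-6 and related cytokines, was listed at 0 in all 16 libraries. In a single library a count of 0 allows up to 0.251 to 2.74 CPM, depending on its total, and 0.0306 CPM over the sum of all 98029304 counts (the level of 3 counts, which covers counting error only). Unlike the other CPM values, these bounds use total counts without TMM correction. Since a row at 0 says nothing of why it is at 0, the ratio of Il6ra to Il6st was not computed. In all, 10472 symbols (44.9%) were at 0 in every library.

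The interferon-γ receptor joins Ifngr1, which binds the cytokine, to Ifngr2, which is needed for the signal. Ifngr1 differed by -0.14 (95% CI -0.45 to 0.17) in control and -0.19 (95% CI -0.47 to 0.078) in LTβRΔN neutrophils on the log2 scale. Ifngr2 differed by -0.00016 (95% CI -0.33 to 0.33) and -0.015 (95% CI -0.31 to 0.28). All groups of both genes overlapped, with Ifngr1 between 228 and 395 CPM and Ifngr2 between 199 and 315 CPM.

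Il4ra, the chain shared by the receptors for IL-4 and IL-13, was at 443 ± 92.9 CPM (SD, n = 3) in unstimulated and 511 ± 28.0 CPM (SD, n = 4) in stimulated control neutrophils, a log2 difference of 0.21 (95% CI -0.12 to 0.53). In LTβRΔN neutrophils the difference was 0.12 (95% CI -0.17 to 0.40). With library totals as the only scaling both differences turned negative, at -0.036 and -0.079. Its partner for IL-13, Il13ra1, which was also looked at after its values had been seen, lay between 304 and 577 CPM and differed by -0.39 (edgeR adjusted p 0.360) and -0.28 (edgeR adjusted p 0.487). With library totals as the only scaling the former was -0.64 (edgeR adjusted p 0.0198).

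**Figure D3:**
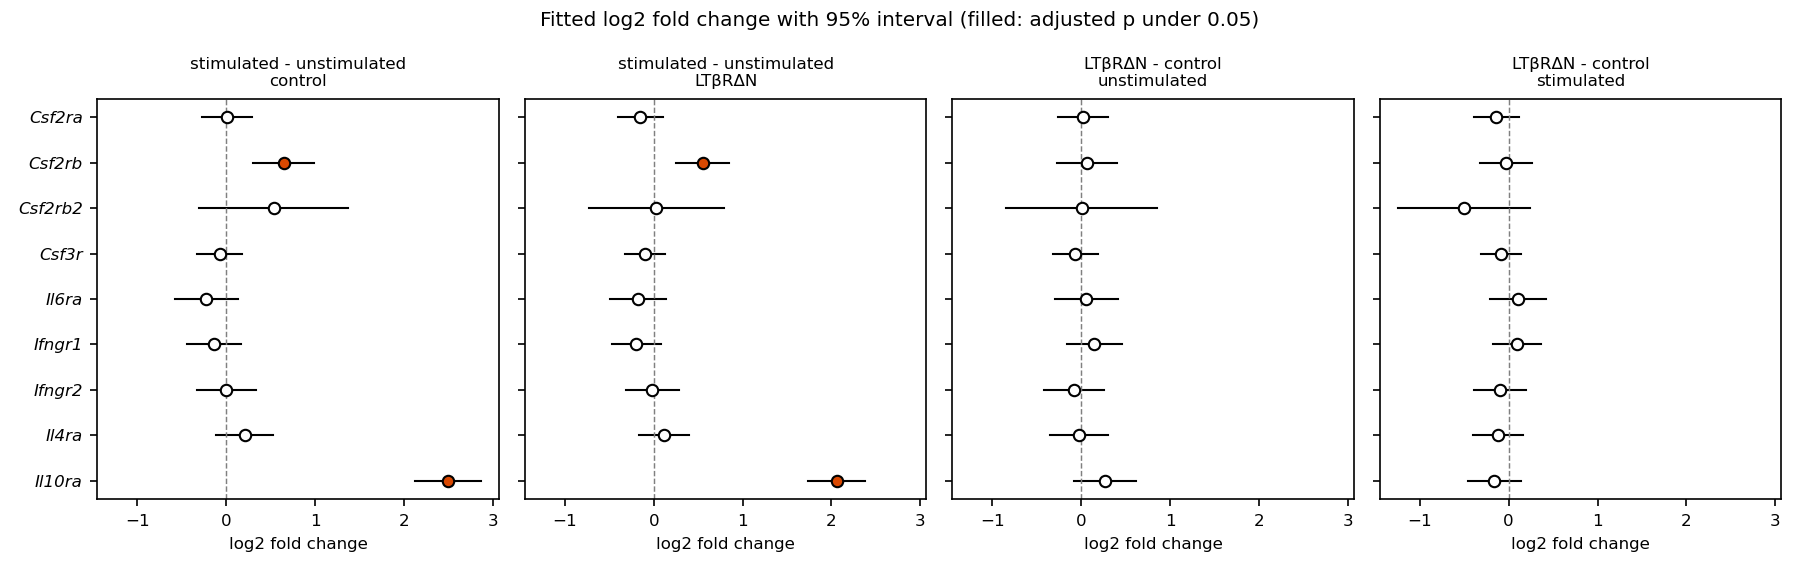
Fitted log2 fold change (x axis) of the 9 tested receptor genes (y axis) in 4 comparisons, with 95% intervals as lines and filled points for an edgeR adjusted p under 0.05. Il10ra and Csf2rb are filled in both comparisons of stimulated with unstimulated neutrophils, no gene is filled between genotypes, and the interval of Csf2rb2 is the widest.

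Loss of LTβR was not accompanied by a detected change in any of these receptors. None of the 9 members passed the edgeR test between LTβRΔN and control neutrophils, either unstimulated or stimulated, where 0.0217% of all genes passed in each comparison, 0.0109% higher and 0.0109% lower. DESeq2 also called none of the 9, and none had an unadjusted p under 0.05, beside 2.8% and 6.41% of all genes. Median log2 differences of the members were 0.019 without and -0.095 with stimulation, beside -0.0084 and -0.011 for all genes. The largest difference among unstimulated libraries was that of Il10ra, at 0.27 (95% CI -0.076 to 0.62), with all 4 LTβRΔN libraries above all 3 control libraries by a narrow margin. Genes without overlap made up 5.71% of all genes there, and Il10ra was the only such member. Among the S520 libraries alone the log2 ratio of Il10ra was 0.31. Among stimulated libraries Csf2rb2 differed by -0.50 (95% CI -1.24 to 0.25), a value that ranged from -0.74 to -0.17 with single libraries left out and was at -0.17 without control replicate 3. There no member was without overlap beside 1.31% of all genes, and Il10ra differed by -0.16 (95% CI -0.46 to 0.14).

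Whether the response to stimulation itself differed between genotypes was tested as an interaction. None of the 9 members passed, and no gene did (0% of 9213 genes by edgeR or by DESeq2, with 342 genes, 3.71%, and no member at an unadjusted p under 0.05). The interaction was -0.43 (SE 0.221, 95% CI -0.89 to 0.026, unadjusted p 0.0633 and adjusted p 1 in edgeR) for Il10ra and -0.095 (95% CI -0.54 to 0.35) for Csf2rb. A smaller rise of Il10ra in LTβRΔN neutrophils, by up to 0.89 on the log2 scale, is within this interval.

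The other genes of these pathways were read from lists that hold their ligands, further receptor chains, kinases, feedback genes and the enzymes that act on the receptors. Beside the counts from these lists, 2.82% of all genes were higher and 0.662% lower in control neutrophils after stimulation. In LTβRΔN neutrophils the shares were 2.98% and 0.749%. Of 16 ligand genes 5 passed the low-count filter, and Osm alone rose, in both genotypes. Osm encodes oncostatin M, a cytokine of the IL-6 family that signals through gp130. It lay between 712 and 3203 CPM in unstimulated and between 5320 and 6993 CPM in stimulated libraries, with log2 fold changes of 2.08 (edgeR adjusted p 0.000914) and 1.56 (edgeR adjusted p 0.00374). With the index as a covariate these were 1.17 (edgeR adjusted p 0.345) and -0.18 (edgeR adjusted p 1). Csf2 and Ifng, the genes of GM-CSF and interferon-γ, were at 0 in all libraries, and Csf3, the gene of G-CSF, reached at most 8.51 CPM in stimulated libraries and was at 0 in the others.

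Type I and II cytokine receptors had 34 further chains among the symbols, and 16 of these were tested. Il2rg alone rose, in both genotypes. Il2rg encodes the common γ chain of the receptors for IL-2, IL-4 and related cytokines. It was at 14.6 ± 2.46 CPM (SD, n = 3) in unstimulated and 46.0 ± 3.14 CPM (SD, n = 4) in stimulated control libraries, and at 14.4 ± 4.03 CPM (SD, n = 4) and 45.6 ± 19.7 CPM (SD, n = 5) in LTβRΔN libraries. The log2 fold changes were 1.65 (edgeR adjusted p 0.00365) and 1.63 (edgeR adjusted p 0.00128). Median log2 fold changes over the 16 chains were 0.19 and 0.051. With the index as a covariate the log2 fold changes of Il2rg were 1.93 (SE 0.560) and 2.02 (SE 0.655), and the edgeR adjusted p-values 0.119 and 0.306.

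Of 11 JAK and STAT genes, all tested, Jak2 alone rose, the kinase that acts for the GM-CSF and interferon-γ receptors. Jak2 was at 17.7, 26.5 and 26.7 CPM in unstimulated and at 56.1, 66.7, 49.9 and 63.0 CPM in stimulated control libraries, and LTβRΔN libraries lay between 29.5 and 32.8 CPM without and between 64.8 and 125 CPM with stimulation. The groups did not overlap in either genotype. The log2 fold changes were 1.32 (edgeR adjusted p 0.000751) and 1.55 (edgeR adjusted p 2.22e-05). Once the index was a covariate they were 1.14 (SE 0.370) and 1.28 (SE 0.445), with edgeR adjusted p-values of 0.211 and 0.442. Median log2 fold changes over the 11 genes were -0.078 and 0.17.

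Of 17 tested feedback and response genes 6 rose in control and 5 in LTβRΔN neutrophils, and none fell. Osm, already given among the ligands, is counted here again in both genotypes. The genes with the smallest adjusted p were Pim1, a kinase that supports survival, and Cish and Socs3, the inhibitors that act on STAT5 and gp130 signalling. Pim1 rose by 2.67 and 2.50 on the log2 scale (edgeR adjusted p 1.17e-11 and 3.69e-12). Cish rose by 8.60 and 8.05 from a level near 0 (edgeR adjusted p 2.68e-11 and 1.36e-11), and Socs3 by 4.03 and 3.59 (edgeR adjusted p 4.31e-10 and 1.72e-10). The medians over the 17 genes were 0.59 and 0.13. Pim1, Cish and Socs3 were called with each library left out and under every alternative that tested them, Cish not being tested where 10 counts were needed in every library.

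Of 12 tested phosphatases, ligases and proteases that act on these receptors 2 rose in each genotype. None of the 12 passed the edgeR test between genotypes or for the interaction. Ptpn1, a phosphatase of JAK2, rose by 0.68 (edgeR adjusted p 0.00413) and 0.62 (edgeR adjusted p 0.00277) on the log2 scale. Ptpn2, another JAK phosphatase, rose in control neutrophils by 1.31 (edgeR adjusted p 0.00870), and Ptpn11, the phosphatase SHP2, rose in LTβRΔN neutrophils by 2.47 (edgeR adjusted p 0.0120) from 2.96 ± 2.88 CPM (SD, n = 4) to 14.1 ± 2.27 CPM (SD, n = 5). With 1 unstimulated library left out these calls were lost for Ptpn1 without control replicate 2 (edgeR adjusted p 0.0579), for Ptpn2 without control replicate 3 (edgeR adjusted p 0.0729) and for Ptpn11 without LTβRΔN replicate 1, 3 or 4 (edgeR adjusted p 0.0512, 0.0651 and 0.0696). With the index as a covariate all of these calls were lost, at 0.68 and 0.61 for Ptpn1 (edgeR adjusted p 0.207 and 0.843), 1.58 for Ptpn2 (edgeR adjusted p 0.146) and 3.11 for Ptpn11 (edgeR adjusted p 0.645). With library totals as the only scaling Ptpn1 was at 0.43 in both genotypes (edgeR adjusted p 0.104 and 0.0604).

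Of the receptors for TNF and LIGHT, 4 genes all tested, Tnfrsf1a fell by 0.44 on the log2 scale in control neutrophils (edgeR adjusted p 0.0360), a call that, of the 7 libraries left out in turn, was kept only without stimulated control replicate 4, with adjusted p-values of 0.156, 0.0526 and 0.107 without stimulated replicates 1, 2 and 3 and of 0.0830, 0.175 and 0.0896 without unstimulated replicates 1, 2 and 3. It was also lost with the index as a covariate (-0.42, edgeR adjusted p 0.466), with only the groups compared in the fit (edgeR adjusted p 0.104) and with every gene of at least 1 count (edgeR adjusted p 0.0528).

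**Figure D4:**
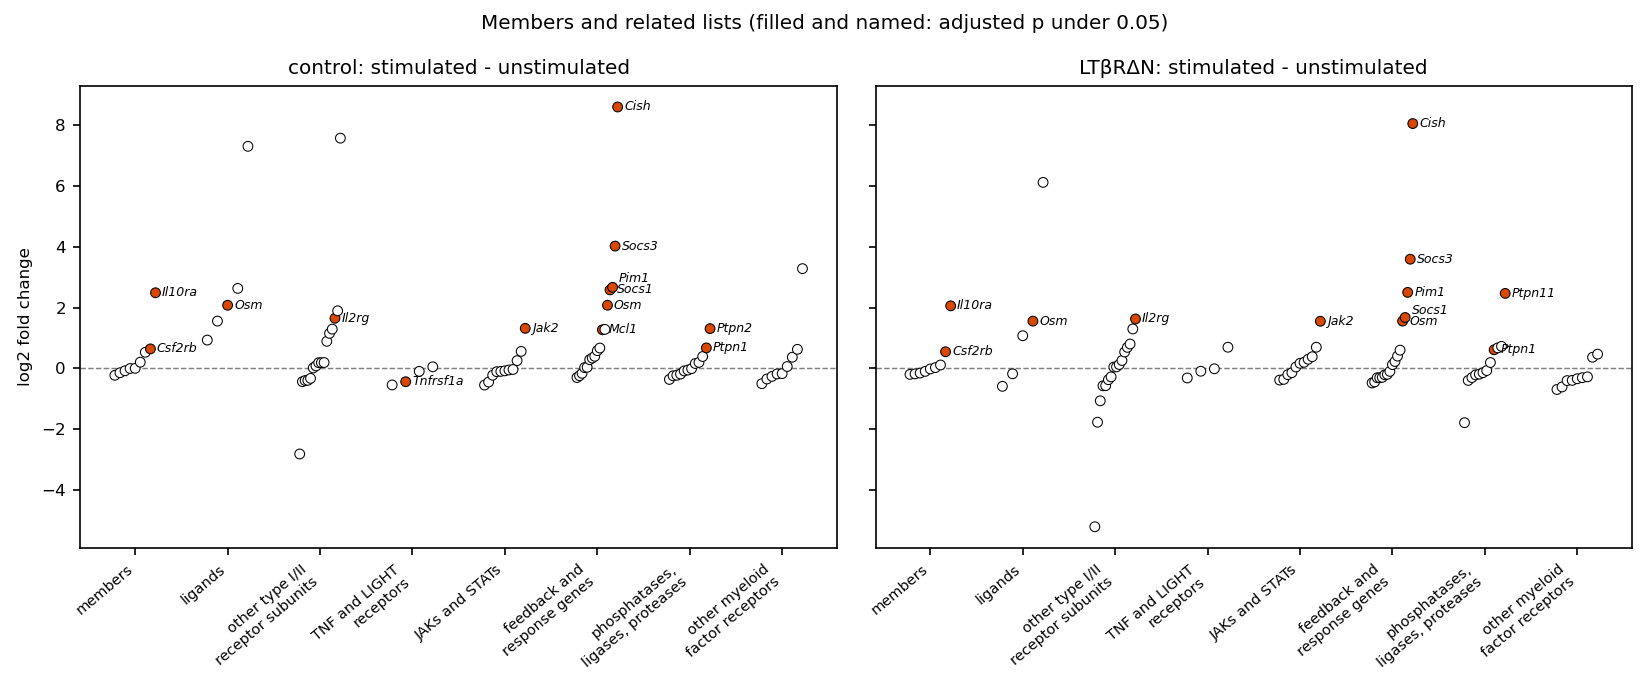
Log2 fold change of stimulated against unstimulated neutrophils (y axis) for the tested genes of 8 lists (x axis) in control (left) and LTβRΔN (right) neutrophils, with filled, named points for an edgeR adjusted p under 0.05. Feedback genes hold the highest filled points, and each receptor list holds at most 2. Open points beyond 5 in either direction, such as that of Csf3, belong to genes whose libraries were all at 0 in 1 group, so that their height depends on the fit.

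Promoter windows of RefSeq (GRCm38.p6, from 250 bases before to 50 bases after each gene's start) were found for 8 of the 10 members, all but Il10ra and Csf2rb. They were searched on both strands for 3 motifs, each counted on its own whether or not it overlapped another. The letters TTCNNNGAA, to which STAT factors bind, were in 1 of the 8 windows and in 8.3% of all 32851 windows. The letters GAGGAAGT, of the myeloid factor PU.1, were in 1 of 8 and 3.2% of all, and TTNNGNAA, of C/EBP factors, in 3 of 8 and 40.7% of all. The window with the STAT letters was that of Csf2rb2, and its upstream bases are shown with them in capitals (minus strand, chr15:78305722-78305971, read 5′ to 3′ toward the start). The match begins 15 bases before the start.
Csf2rb2 upstream: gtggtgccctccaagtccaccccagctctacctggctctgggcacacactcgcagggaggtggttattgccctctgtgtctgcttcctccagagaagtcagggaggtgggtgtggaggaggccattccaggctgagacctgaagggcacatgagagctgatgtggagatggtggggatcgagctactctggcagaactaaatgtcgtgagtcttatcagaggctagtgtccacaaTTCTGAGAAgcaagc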

How the data were processed

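Blood neutrophils of 7 control and 9 LTβRΔN libraries were measured by bulk RNA-Seq (single-end). The deposited values are raw counts, whole numbers for each gene symbol with no normalization by the authors, and the submitters' processing notes name Bowtie 1.0.0, TopHat 1.4.1, HTSeq 0.7.1 and the build mm10. Whether counting used strand is not given in the sources used here. Libraries were grouped by their labels, and the order of replicates is that of the labels' listing.

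The counts entered a quasi-likelihood fit in edgeR 4.0.16 under R 4.3.3 (filterByExpr, min count 10, min total 15, TMM factors, 1 coefficient per group over 16 libraries, Benjamini-Hochberg adjustment over 9213 genes). The interaction is the difference between the genotypes' fold changes. Within-library log2 ratios had 0.5 added to each count and entered exact permutation tests of the difference in means, two-sided. Of 16 planned tests 12 were run, since those with Il6st gave no ratio. Positions and exon lengths are from GENCODE M21, and sequences are from GRCm38 and RefSeq. Alternatives were other scalings and filters, DESeq2 1.42.0, the library index or a replicate block as covariates, only the groups compared, summed copies, 1 added in ratios, and leaving out each library. Scripts were tested on simulated data.

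Named genes are the 10 members, up to 3 called genes per list and comparison with the smallest adjusted p, the 3 genes most like a member, Ltbr, Cish and Socs3. Il10rb, Il13ra1 and genes named at 0 or at low level were chosen after their values were seen. The members and lists were chosen with earlier results of these data known. Total counts set the precision, and the library with 1094335 counts has the least. Some items are not reported here.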

Additional observations from a re-analysis of the deposited data

Results flagged for a closer look

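Among 36 combinations of a receptor gene or subunit ratio with a group of at least 4 libraries, 3 held a library far from the others by Dixon's test, where chance gives 1.8. Csf3r was at 7147 CPM in unstimulated LTβRΔN replicate 2, and the next library of that group was at 5313 CPM. Il4ra was at 567 CPM in the same library, with the next at 399 CPM, and at 381 CPM in stimulated LTβRΔN replicate 1, with the next at 482 CPM. Unstimulated LTβRΔN replicate 2 has the smallest total of all libraries, 1094335 counts. Without it the log2 difference of Csf3r between stimulated and unstimulated LTβRΔN neutrophils was 0.037 in place of -0.095, and neither value passed the test.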

How the results depend on the processing

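Il10ra kept its call in every setting, with log2 fold changes as given above. Leaving out single libraries gave 1 to 2 members called in either comparison of stimulated with unstimulated neutrophils and 0 between genotypes or for the interaction, and the index as a covariate and library totals as the only scaling gave 1 in each. The gene lost was Csf2rb. Genes called in all were 157 and 79 with the index as a covariate, in place of 321 and 344. Library totals gave 201 higher and 272 lower genes in control and 216 and 293 in LTβRΔN neutrophils, in place of 260 and 61, and of 275 and 69, and moved the median of all genes to -0.27 and -0.21. Between genotypes the 2 genes called became 4 unstimulated and 14 stimulated with DESeq2, 1 and 1 with at least 10 counts in every library, and 4 unstimulated with every gene of at least 1 count, and the interaction gave 1 gene with the index. With libraries left out, genes called ranged from 219 to 334 and from 266 to 334 after stimulation, from 2 to 6 and at 2 between genotypes, and from 0 to 2 for the interaction. The cause was not tested.

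The log2 values that changed sign had not passed the test, apart from that of Osm in LTβRΔN neutrophils. In control neutrophils Csf2ra was at -0.0030 with every gene of at least 1 count, -0.25 with library totals, -0.00048 with the replicate block and -0.043 with upper-quartile factors, and Ifngr2 was at 0.011 with DESeq2, 0.011 with its size factors, 0.0091 with at least 10 counts and 0.062 with the index. Il4ra was at -0.036 with library totals, and Il10rb at -0.23 with them and -0.029 with upper-quartile factors. In LTβRΔN neutrophils the index gave 0.057 for Csf2ra, 0.00088 for Csf3r, 0.077 for Ifngr2, -0.014 for Il4ra and -0.18 for Osm, and library totals gave -0.15 for Csf2rb2, -0.079 for Il4ra and -0.13 for Il10rb. Csf2rb2 was also at -0.045 with the replicate block and -0.0018 with upper-quartile factors, and Ifngr2 at 0.0012 with DESeq2's size factors, 0.0090 with at least 10 counts and 0.0013 with the groups compared only. Leaving out single libraries moved Csf2ra from -0.064 to 0.110, Ifngr2 from -0.080 to 0.102 and Il10rb from -0.038 to 0.107 in control, and Csf2rb2 from -0.21 to 0.24, Csf3r from -0.18 to 0.037 and Ifngr2 from -0.10 to 0.065 in LTβRΔN neutrophils. Csf2rb ranged from -0.084 to 0.16 and from -0.11 to 0.081 between genotypes and from -0.19 to 0.058 for the interaction. The log2 ratio of Csf2ra to the β chains ranged from -0.73 to -0.47 and from -0.81 to -0.57 after stimulation, and from -0.11 to 0.12 and from -0.19 to 0.029 between genotypes, and that of Csf2rb2 to Csf2rb from -0.28 to 0.18 between unstimulated genotypes and from -0.47 to 0.18 in control.

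The column names of 7 unstimulated and 7 stimulated libraries share a number. Deviations of same-numbered libraries correlated at 0.0214 to 0.0694, with 0 of 7 pairs over 0.1, while 13 of 14 libraries correlated best with their own number. This is a hint from the data and not from the design, since the labels do not say what the number marks. A replicate block gave 324 and 343 genes called, with 2 members in each, and changed no call of a member. The genotype comparisons could not be fitted with it.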

Other observations

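Of 12 further receptors for myeloid growth and inflammatory factors, such as Csf1r, Kit, Il1r2 and Il17ra, 9 were tested, and none passed the edgeR test in any of the 5 comparisons. Il1r1, with 3 counts over all libraries, was among those not tested. The median log2 fold change of the 9 tested genes was -0.17 in control and -0.34 in LTβRΔN neutrophils after stimulation, beside -0.024 and -0.028 for all genes. Of all genes, 3.48% and 3.73% passed in these 2 comparisons. Some of the 9 had low levels, such as Kit at a mean of 1.83 CPM and Il18r1 at 5.11 CPM over the 16 libraries.

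For the other members the genes with the most alike patterns over the 16 libraries, among 5452 genes, had lower correlations than those of Il10ra, given here as descriptions. They were Sorl1 for Csf2rb (r = 0.919), Tgfbi for Csf3r (r = 0.912), Limd1 for Il6ra (r = 0.859), Ifit1 for Ifngr1 (r = 0.853), Vps26a for Csf2rb2 (r = 0.837), Psma5 for Ifngr2 (r = 0.812), Ap4b1 for Csf2ra (r = 0.794) and Pbxip1 for Il4ra (r = 0.728).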
